A study of Mus musculus with 8 samples.

Results

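The genes described here are Runx1, Etv6, Otx2, Sall3, Tox3, Epas1, Cd44 and Enc1, a group known from earlier work as genes that carry a maternal H3K27me3 imprint for a short time before implantation. Each locus was the gene body plus 50 kb on either side in mm9 coordinates, and every H3K27me3 peak that shared at least 1 base with it was a member. This gave 175 of the 90158 peaks of the Kdm6bMUT library and 17 of the 4991 peaks of the Kdm6bWT library, over 8 loci with a total length of 1581 kb. The data come from mouse morulae labelled BDF1xPWK, from oocytes of 8-week-old BDF1 females. The label field for strain names PWK as the other parent, while the injection protocol speaks of BDF1 sperm. Zygotes of the Kdm6bWT group were injected with Kdm6b mRNA and those of the Kdm6bMUT group with mRNA of a Kdm6b mutant, both at 1.8 µg/µl, starting 2.5 hours after fertilization and ending by 4 hours. Each injection has 1 ultra-low-input native ChIP-seq library, called against input, so there are no replicates and no test between the injections, and every comparison is between these libraries. The input samples are titled with an injection but tagged as not injected. The number of embryos behind each ChIP library is not given in the sources used here.

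H3K27me3 is the repressive histone mark that Polycomb repressive complex 2 places, and Kdm6b is a demethylase that removes it. Mouse oocytes lay the mark down in broad domains, and the maternal genome carries these into the early embryo. At a set of genes without DNA methylation imprints, the maternal domain keeps the maternal copy silent while the paternal copy is expressed, which is called non-canonical imprinting. At most of them the allelic bias disappears in the embryo proper after implantation, and a few keep it in the placenta. The peak lists do not separate the parental alleles and cover 1 stage, so neither the imprint of these genes nor its short life could be examined in them.

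All 8 loci lay under dense H3K27me3 in Kdm6bMUT-injected morulae, and almost none of it was called in Kdm6bWT-injected morulae. Kdm6bMUT peaks covered 1076 kb, or 68.0% of the loci, against 10.3% of the autosomes. Kdm6bWT peaks covered 12.2 kb, or 0.775%, against 0.140% of the autosomes. The ratio of covered bases was 87.8 over the loci and 73.3 over the autosomes. It was 171 without Epas1, and 114 in the 999 autosomal windows of 200 kb with at least 40% Kdm6bMUT coverage. The lists reach down to unlike limits, with a lowest −log10 p of 2.41 for Kdm6bMUT and 3.67 for Kdm6bWT. With 3.67 as the floor in both lists, the ratio over the loci was 71.9. The autosomal ratio was not computed at that floor. Coverage by Kdm6bMUT peaks ranged from 43.7% at Enc1 to 83.5% at Etv6, with a median of 62.6%, whereas the median autosomal window of 200 kb had 1.27%. Of 12016 such windows, 8.31% were covered to at least 40%, a level that all 8 loci passed, but which was chosen after their values were seen. Counting only Kdm6bMUT peaks that reach the lowest −log10 p of the Kdm6bWT list, 4 loci were under it, with 23.9% at Otx2, 30.1% at Tox3, 32.0% at Sall3 and 38.0% at Enc1. Enc1 was also under it with flanks of 100 kb (36.8%), and Tox3 as a gene body alone (37.4%) and with flanks of 20 kb (39.6%). The read depth behind the lists is unknown, and peak calling finds less in a library with fewer reads. The part of depth in the difference between the injections was not tested.

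**Figure D1:**
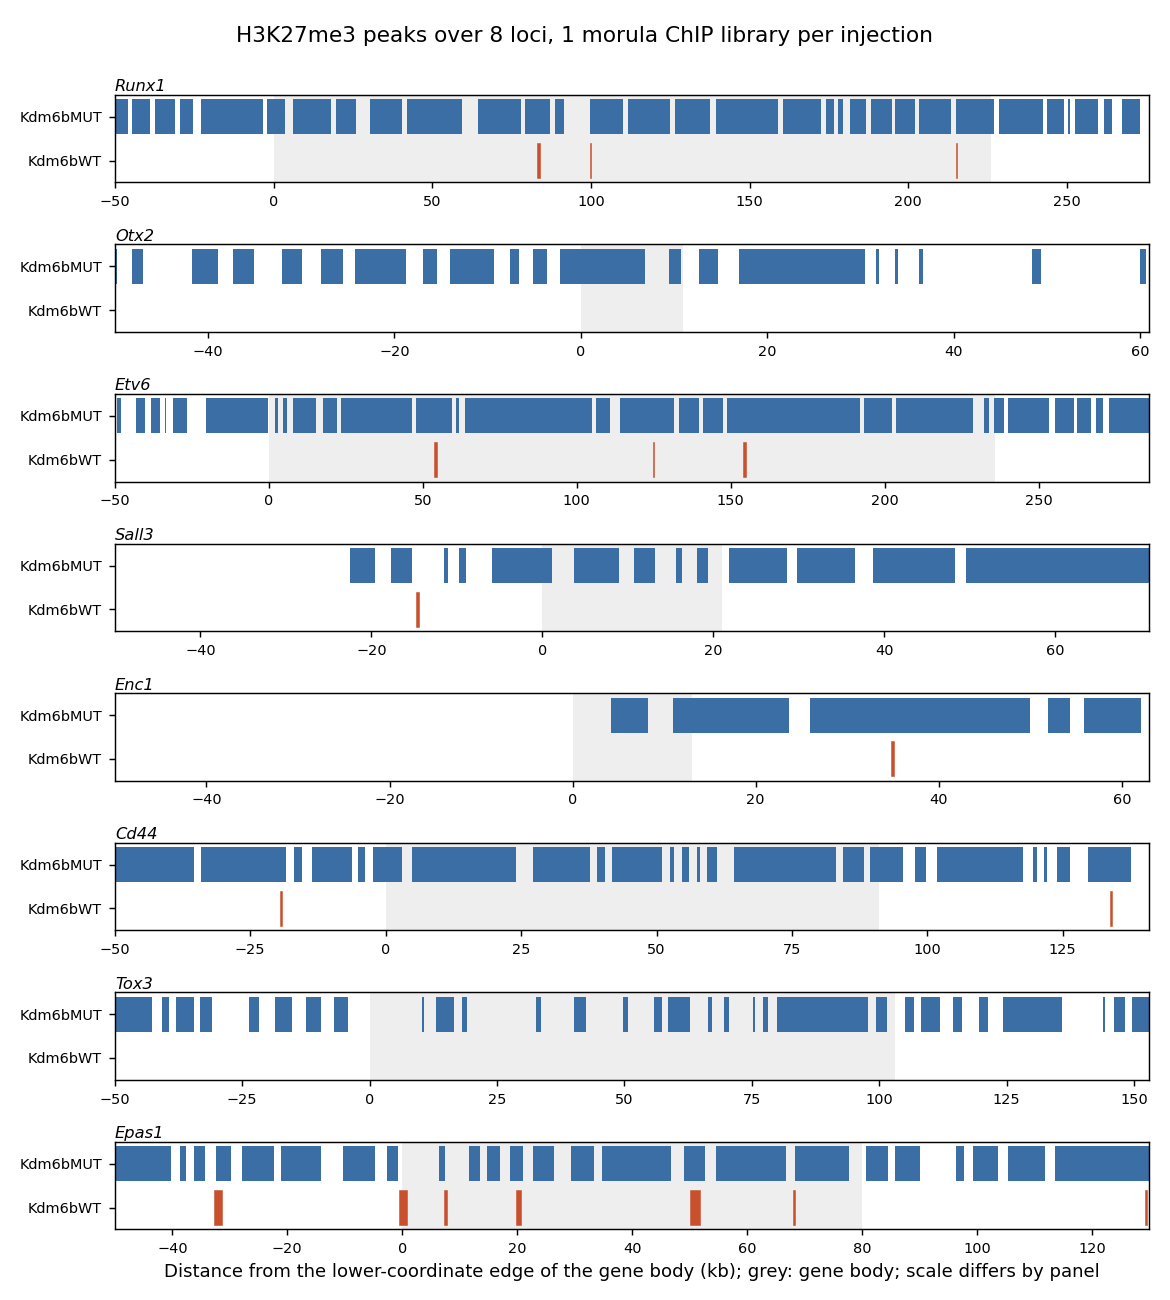
Peaks of the Kdm6bMUT library (blue) and of the Kdm6bWT library (orange) at each locus, against the distance in kb from the lower-coordinate edge of the gene body (grey), drawn out to 50 kb on either side. Blue fills most of the Runx1, Etv6, Cd44 and Epas1 panels, the lower flank of Enc1 is empty, and 7 of the 17 orange peaks are at Epas1.

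Runx1 encodes a transcription factor required for the first blood stem cells, and its locus was among the most densely marked of the genome. The gene body lies on chromosome 16 from 92601000 to 92827000, on the minus strand. In the Kdm6bMUT library 31 peaks covered 260 kb, or 79.8%, of the 326 kb locus. In the Kdm6bWT library 3 peaks covered 1.58 kb, or 0.485%. Among 7367 autosomal windows of the same length, 0.176% had as much Kdm6bMUT coverage and 8.23% as much Kdm6bWT coverage, while 39.5% held any Kdm6bWT base. Coverage was similar along the locus, at 82.3% in the lower flank, 80.8% in the body and 72.8% in the higher flank. The widest Kdm6bMUT peak, 19.4 kb (92578257 to 92597667), lay in the lower flank. Of the 31 peaks, 11 were at least 10 kb wide. Joined across gaps of less than 10 kb, they belonged to a run of 82 peaks that spanned 757 kb (92470954 to 93228371). This run ranked 4 by length among the 17285 runs of the Kdm6bMUT list and reached 80.0 kb below and 351 kb above the locus. The longest uncovered stretch inside the gene was 8.08 kb (92692662 to 92700744). A Kdm6bWT peak of 300 bases (92700692 to 92700991) sat on the edge of that stretch, with 82.3% of its length on the next Kdm6bMUT peak. The other Kdm6bWT peaks, of 955 bases (92684127 to 92685081) and 327 bases (92815939 to 92816265), lay wholly on Kdm6bMUT peaks.

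Etv6, which encodes an ETS-family repressor needed for blood formation and for the yolk sac circulation, had the highest Kdm6bMUT coverage of the 8 loci. Its body lies on chromosome 6 from 133985000 to 134221000, on the plus strand. In the Kdm6bMUT library 29 peaks covered 281 kb, or 83.5%, of the 336 kb locus. In the Kdm6bWT library 3 peaks covered 2.62 kb, or 0.780%. Of 7149 autosomal windows of this length, 0.0839% had as much Kdm6bMUT coverage and 3.27% as much Kdm6bWT coverage, and 40.3% held any Kdm6bWT base. The 2 widest Kdm6bMUT peaks of all 8 loci lay in the gene, 43.2 kb (134133793 to 134176982) and 41.1 kb wide, and both are among the widest 0.0433% of the list. Coverage was 87.4% in the body, 84.1% in the higher flank and 64.6% in the lower, upstream flank. All 3 Kdm6bWT peaks were in the gene body and wholly on Kdm6bMUT peaks. They were 1117 bases (134038607 to 134039723), 300 bases (134109921 to 134110220) and 1203 bases wide (134138847 to 134140049). The last fell inside the 43.2 kb peak.

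Otx2 and Tox3 had many short Kdm6bMUT peaks and no Kdm6bWT peak. Otx2 encodes a homeobox factor of the epiblast and the anterior head, and its small body lies on chromosome 14 from 49277000 to 49288000, on the minus strand. At this locus 20 Kdm6bMUT peaks covered 53.9 kb, or 48.5%, and 74.7% of the gene body. Coverage was lower on the higher-coordinate, upstream side, at 36.6% of the flank, against 54.7% on the other side. Windows as long as the Otx2 locus reached its Kdm6bMUT coverage in 6.69% of cases. The run of peaks over the gene ended at 49313678, 25.7 kb above the body, and an uncovered stretch of 11.7 kb followed. The widest peak, 13.5 kb (49294020 to 49307479), lay upstream of the gene, and was the 1 peak of at least 10 kb there. Tox3 encodes a high-mobility-group box factor, and its body lies on chromosome 8 from 92770000 to 92873000, also on the minus strand. There 30 Kdm6bMUT peaks covered 90.7 kb, or 44.7%, and the body was the least covered of the 8 genes, at 37.4%. Of windows as long as the Tox3 locus, 6.6% had as much Kdm6bMUT coverage. The longest uncovered stretch in the Tox3 body was 13.6 kb (92789131 to 92802699), and its widest peak of 17.8 kb (92849889 to 92867731) lay in the gene body, ending 5.27 kb short of its 5′ edge. The Otx2 and Tox3 loci had the lowest median peak widths, 1800 and 2072 bases. The nearest Kdm6bWT peak was 39.7 kb above the Otx2 locus (49377700 to 49378298) and 49.5 kb below the Tox3 locus (92669258 to 92670484). Absence of a Kdm6bWT peak was common over all autosomal windows of these lengths, most of which had little Kdm6bMUT coverage. Among autosomal windows as long as the Otx2 locus 17.5% held any Kdm6bWT base, and among those as long as the Tox3 locus 28.1% did. It was less common in windows of 200 kb with at least 40% Kdm6bMUT coverage, of which 31.4% held no Kdm6bWT base. Windows with such coverage were not counted at the length of the Otx2 locus.

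Sall3 and Enc1 were marked unequally on their 2 sides. Sall3 encodes a spalt-family zinc-finger factor, and its body lies on chromosome 18 from 81163000 to 81184000. At Sall3 13 Kdm6bMUT peaks covered 67.9 kb, or 56.1% of the locus, which 4.41% of 19868 autosomal windows of that length reached. The covered share was 25.2% in the lower flank, 51.8% in the body and 88.9% in the higher flank. The widest Kdm6bMUT peak at Sall3, 25.4 kb (81212604 to 81238019), began in the higher flank and ended past the locus, which ends at 81234000. The lowest 27.5 kb of the locus held no Kdm6bMUT peak, and from there a run of 351 kb (81140506 to 81491775) continued 258 kb past the locus. Its 1 Kdm6bWT peak, of 300 bases (81148242 to 81148541), lay in the lower flank, 501 bases from the nearest Kdm6bMUT peak and on none. Any Kdm6bWT base was found in 18.7% of windows of this length, and at least as many as at Sall3 also in 18.7%. Enc1 encodes a kelch-repeat protein that binds actin and is named for the ectoderm and neural cortex, and its body lies on chromosome 13 from 98011000 to 98024000. At Enc1 5 Kdm6bMUT peaks covered 49.4 kb, or 43.7% of the locus, which 7.99% of 21276 windows of that length reached. The covered share was 0% in the lower flank, 47.4% in the body and 86.5% in the higher flank. The Kdm6bMUT domain began 4.17 kb inside the Enc1 body, at 98015166, and ran for 479 kb with 55 peaks, of which 421 kb lay above the locus. The 1 Kdm6bWT peak at Enc1, of 300 bases (98045780 to 98046079), lay inside its widest Kdm6bMUT peak, of 24.0 kb (98036963 to 98060976), and 17.7% of windows of this length held at least as many Kdm6bWT bases. In RefSeq's GRCm38.p6 gene order, Atp9b, which encodes a phospholipid flippase, is the protein-coding neighbour on the lower side of Sall3. The peaks carry no gene names and no mm9 annotation was used, so the edge of the Sall3 domain was not set against this neighbour.

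Cd44 encodes the cell-surface receptor for hyaluronan, and its body lies on chromosome 2 from 102651000 to 102742000, on the minus strand. At Cd44 23 Kdm6bMUT peaks covered 149 kb, or 77.9% of the locus, which 0.485% of 12584 autosomal windows of that length reached. The covered share was 85.4% in the lower, downstream flank, 79.4% in the body and 67.7% in the higher flank. The widest peak, 37.1 kb (102578443 to 102615564), lay downstream of Cd44, on the side where Slc1a2, a glutamate transporter gene, is the neighbour in GRCm38.p6. The Cd44 locus starts at 102601000, so part of this peak lay outside it. Uncovered stretches were short, and none in the Cd44 locus was longer than 3.48 kb. In the Kdm6bWT library 2 peaks covered 0.758 kb, or 0.397%, where 26.8% of windows of this length held any Kdm6bWT base and 12.8% as many. Both lay in the flanks (102631576 to 102631875 and 102784683 to 102785140) and wholly on Kdm6bMUT peaks, and the body of Cd44 held none.

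**Figure D2:**
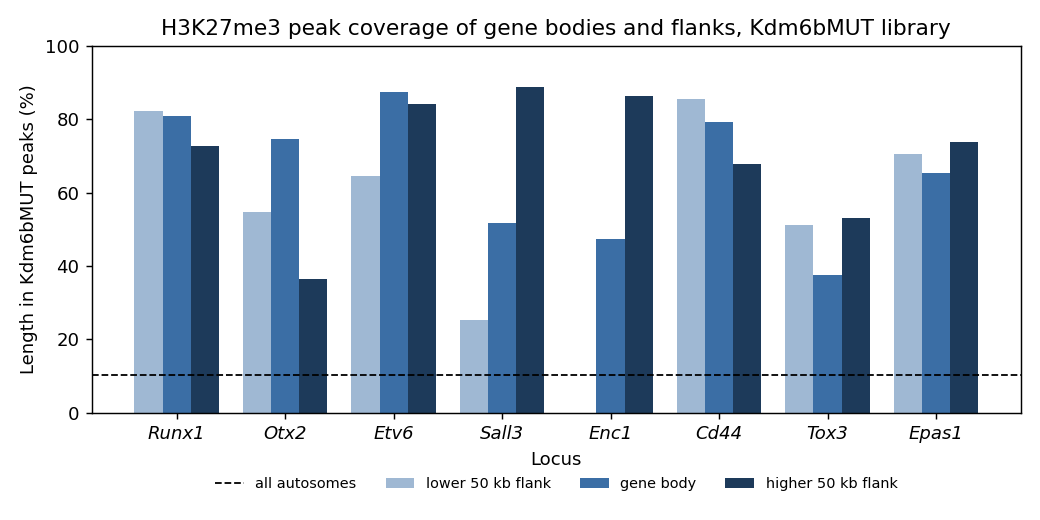
Share of the lower 50 kb flank, the gene body and the higher 50 kb flank of each locus that lay in Kdm6bMUT peaks (%, 1 library), with the 10.3% of all autosomes as a dashed line. The lower flank of Enc1, at 0%, is the 1 bar under the line, and Sall3 goes from 25.2% below the gene to 88.9% above it.

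Epas1 held far more Kdm6bWT peak coverage than the other loci. Epas1 encodes HIF-2alpha, the oxygen-regulated partner in a dimeric transcription factor of endothelium and placenta, and its body lies on chromosome 17 from 87153000 to 87233000. In the Kdm6bMUT library 24 peaks covered 124 kb, or 69.1%, of the 180 kb locus. The widest of them, 31.9 kb (87266551 to 87298465), began in the higher flank and ended past the locus, which ends at 87283000. In the Kdm6bWT library 7 peaks covered 6.69 kb, or 3.71%. That is 54.6% of all Kdm6bWT bases at the 8 loci, and the ratio of covered bases was 18.6 at Epas1, against 107 to 226 at the 5 other loci with a Kdm6bWT peak. Among 13351 autosomal windows of this length, 25.6% held any Kdm6bWT base and 0.0524%, or 7 windows, held as many as Epas1. For Kdm6bMUT coverage the share was 1.57%. Of the Kdm6bMUT bases at Epas1, 3.32% lay in Kdm6bWT peaks. The values at the other loci were between 0% and 0.934%.

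The Kdm6bWT peaks at Epas1 were spread over 162 kb, and 5 of the 7 touched the gene body. The widest, 1582 bases (87203150 to 87204731), lay wholly on a Kdm6bMUT peak in the body. The next, 1453 bases (87152421 to 87153873), spanned the lower-coordinate edge of the gene. It touched no Kdm6bMUT peak and lay 118 bases from the nearest, in an uncovered stretch of 7.07 kb (87152304 to 87159377) that was the longest of the Epas1 locus. The third by width, 1392 bases (87120312 to 87121703), was in the lower flank with 76.4% of its length on a Kdm6bMUT peak. In all, 61.7% of the Kdm6bWT bases at Epas1 lay on Kdm6bMUT peaks and 2.56 kb lay outside. These peaks were weak within their own list. Their fold enrichments over input ran from 3.33 to 4.06, 5 of the 7 were below the list median of 3.84, and 4 had a score of 10, the lowest in the list. With a score floor at the list median of 13, Kdm6bWT peaks still covered 1.17% of the Epas1 locus, and at most 0.447% of any other of the 8.

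**Figure D3:**
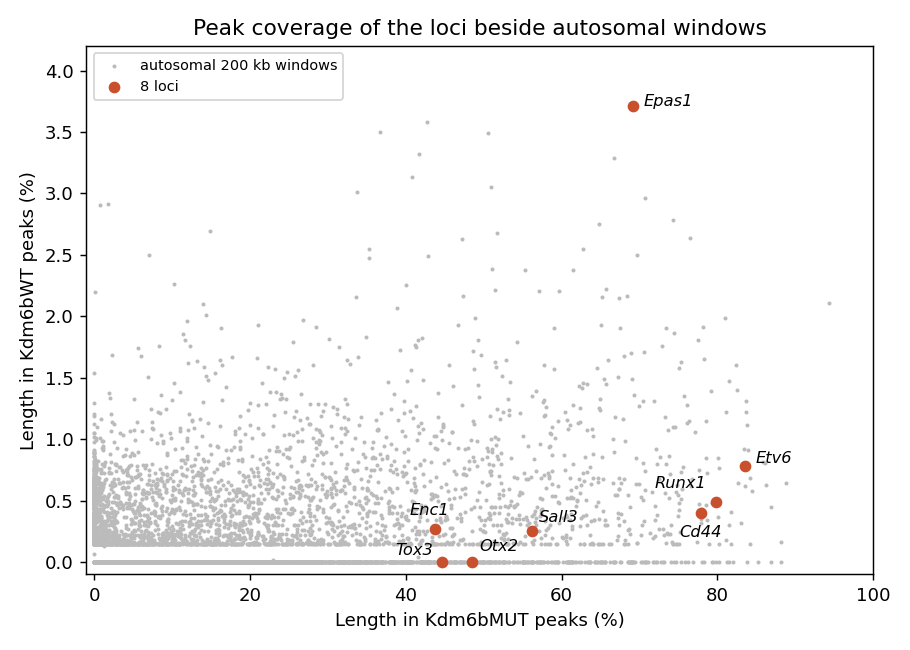
Share of length in Kdm6bWT peaks (%) against share in Kdm6bMUT peaks (%), for 12016 autosomal windows of 200 kb (grey) and the 8 loci (orange), 1 library each; 4 windows above 4.2% on the vertical axis are not drawn. Epas1 stands at 69.1% and 3.71%, while the other 7 loci are at or below 0.780% on the vertical axis.

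Apart from Epas1, the loci held about as much Kdm6bWT coverage as other densely marked windows. In the 999 autosomal windows of 200 kb with at least 40% Kdm6bMUT coverage, Kdm6bWT peaks covered 0.493% of the length on average, with a median of 0.301% and an upper quartile of 0.718%. The 8 loci together had 0.775%, and 0.397% without Epas1. Of these dense windows 68.6% held some Kdm6bWT base, against 27.8% of all windows, and 6 of the 8 loci did. Kdm6bWT peaks held 0.868% of the Kdm6bMUT bases at the loci, 0.547% without Epas1, 0.643% in the dense windows and 0.591% on the autosomes. Of the dense windows, 26.6% had at least as large a share as Etv6, 37.8% as Runx1, 36.3% as Enc1, 40.5% as Cd44 and 1.50% as Epas1. Otx2, Tox3 and Sall3 had 0%, as did 37.9% of the dense windows. These windows include those that overlap the loci, and they differ from the loci in length and in where they start.

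By number, a Kdm6bWT peak overlapped 15 of the 175 Kdm6bMUT peaks. This share was 8.57% (95% exact interval 4.88% to 13.7%), beside 2.63% of all autosomal Kdm6bMUT peaks. Without Epas1 it was 9 of 151, or 5.96% (2.76% to 11.0%). From the other side, 15 of the 17 Kdm6bWT peaks shared at least 1 base with a Kdm6bMUT peak. That is 88.2% (63.6% to 98.5%), beside 50.2% of autosomal Kdm6bWT peaks. Among the 15, the Epas1 peaks that start at 87160210 and 87220936 had 31.3% and 29.6% of their length on Kdm6bMUT peaks. Beside these shares, the loci held 10.8 Kdm6bWT peaks per Mb, against 1.99 on the autosomes and 6.76 in the dense windows, counted there by peak midpoints. Of the length of the loci, 68.0% lay in Kdm6bMUT peaks, against 10.3% of the autosomes. Kdm6bMUT peaks at the loci were also wider, with a median of 3853 bases against 1577 bases in the whole list. The part of these densities and widths in the shares was not tested. The intervals cover counting error only, and peaks of a locus are not independent.

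Kdm6bMUT peaks at the 8 loci were wider than most of their list. Their median width was 3853 bases, against 1577 bases in the whole list. Peak widths and fold enrichments were not computed for the dense windows. A difference between the loci and other densely marked regions was therefore not tested. Of the 175, 36 were at least 10 kb wide, or 20.6%, beside 4.28% of autosomal peaks, and each locus had at least 1. The median was above that of the list at all 8 loci, from 1800 bases at Otx2 to 6775 bases at Runx1. Enrichment differed less than width. The median fold enrichment over input was 3.20 at the loci and 3.07 in the list, and it exceeded the list median at 6 loci, with Runx1 highest at 3.39. At Otx2 it was 3.02, and at Epas1 also 3.02. Of the 175 peaks, 33.7% were above the upper quartile of the list, 3.29. The highest fold enrichments were at Runx1, with 4.00 in a peak of 1561 bases that starts at 92778906, and at Cd44, with 3.88 in a peak of 1600 bases that starts at 102634000. The 10 Kdm6bWT peaks outside Epas1 had fold enrichments on both sides of their list's median, with 6 above it. Over all 17 the median width was 458 bases, against 493 bases in the Kdm6bWT list, and 5 had the smallest width of either list, 300 bases.

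**Figure D4:**
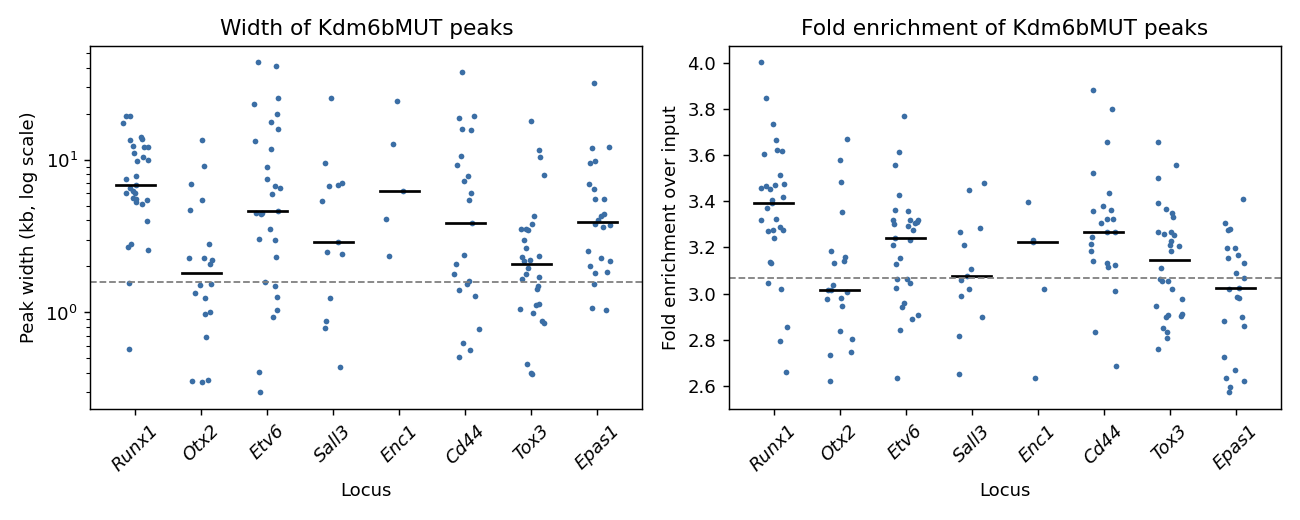
Width (kb, log scale, left) and fold enrichment over input (right) of each of the 175 Kdm6bMUT peaks by locus, with the median of each locus as a black bar and the median of the whole list as a dashed line (1.58 kb and 3.07). Every locus has a median width above the line, while for fold enrichment Otx2 and Epas1 lie just below it.

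Where the strand was known, coverage by Kdm6bMUT peaks near the start of the gene differed between the members and, for some, with the width of the window. Promoter sequences of RefSeq, GRCm38.p6, were matched for 5 of the 8 members, and the entry nearest the 5′ edge of the gene was taken. Its start was at most 4 bases from RefSeq's edge, except at Tox3, where it lay 777 bases inside, so the Tox3 promoter shown is not at the edge whose coverage is given. The window covered by peaks was 2 kb on either side of the 5′ edge in mm9, which the locus definition rounds to 1 kb. It was covered to 87.5% at Cd44, 74.7% at Runx1, 42.8% at Etv6, 42.5% at Otx2 and 11.2% at Tox3. With 5 kb on either side the values were 82.3% at Cd44, 85.0% at Runx1, 60.7% at Etv6, 42.8% at Otx2 and 38.4% at Tox3. The edge itself lay in a peak at Cd44 (6.01 kb wide) and Runx1 (12.1 kb wide). It was 0.229 kb from a peak at Otx2, 0.288 kb at Etv6 and 1.55 kb at Tox3. No Kdm6bWT peak lay within 5 kb of any of the 5 edges, and the nearest was 10.7 kb away, at Runx1. The share of other gene starts with a peak so near was not computed for either library. Epas1 is not among the 5, for want of a strand. A Kdm6bWT peak of 1453 bases (87152421 to 87153873) spanned the lower-coordinate edge of Epas1, and whether the gene starts there was not examined. The promoters, 250 bases before to 50 bases after the start, differed widely in CG dinucleotides, the letters CG read on either strand. There were 2 at Runx1, 6 at Cd44, 6 at Otx2, 17 at Etv6 and 52 at Tox3, against a median of 7 over 32851 promoters, of which 94.6% held at least 1. As many CG as at Tox3 were found in 0.575% of promoters, and as many as at Runx1 in 85.9%. Runx1 has 2 starts in the table and Otx2 has 4, and the inner ones were not placed on the mm9 peaks. The sequences of 4 genes are shown because they span this range, from the peak-covered starts of Runx1 and Cd44 to the start of Tox3, the least covered of the 5 in both windows. Otx2 is not shown, and with 6 CG, as at Cd44, it had 42.5% of the narrower window covered against 87.5%. Sequences run 5′ to 3′ with each CG in capitals. Their GRCm38.p6 positions are chr16:92826025-92826324 (minus strand) for Runx1, chr2:102901616-102901915 (minus) for Cd44, chr6:134035450-134035749 (plus) for Etv6 and chr8:90348203-90348502 (minus) for Tox3.
Runx1: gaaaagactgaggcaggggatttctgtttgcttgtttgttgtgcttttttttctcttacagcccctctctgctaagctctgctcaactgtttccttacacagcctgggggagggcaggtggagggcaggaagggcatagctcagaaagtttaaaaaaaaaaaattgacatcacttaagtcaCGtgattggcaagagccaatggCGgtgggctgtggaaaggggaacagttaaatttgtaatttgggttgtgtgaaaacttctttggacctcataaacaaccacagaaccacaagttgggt
Cd44: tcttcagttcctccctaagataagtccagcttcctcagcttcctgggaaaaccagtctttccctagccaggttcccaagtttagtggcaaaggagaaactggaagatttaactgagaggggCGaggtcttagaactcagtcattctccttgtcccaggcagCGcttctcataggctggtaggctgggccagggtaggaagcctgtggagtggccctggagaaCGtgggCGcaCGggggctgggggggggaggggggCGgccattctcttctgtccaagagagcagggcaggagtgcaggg
Etv6: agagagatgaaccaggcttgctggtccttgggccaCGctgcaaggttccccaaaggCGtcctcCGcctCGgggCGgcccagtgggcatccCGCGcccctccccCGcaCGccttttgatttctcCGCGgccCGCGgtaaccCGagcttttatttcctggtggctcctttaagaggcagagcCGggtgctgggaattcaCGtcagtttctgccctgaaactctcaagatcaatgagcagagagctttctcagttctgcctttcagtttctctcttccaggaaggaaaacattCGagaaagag
Tox3: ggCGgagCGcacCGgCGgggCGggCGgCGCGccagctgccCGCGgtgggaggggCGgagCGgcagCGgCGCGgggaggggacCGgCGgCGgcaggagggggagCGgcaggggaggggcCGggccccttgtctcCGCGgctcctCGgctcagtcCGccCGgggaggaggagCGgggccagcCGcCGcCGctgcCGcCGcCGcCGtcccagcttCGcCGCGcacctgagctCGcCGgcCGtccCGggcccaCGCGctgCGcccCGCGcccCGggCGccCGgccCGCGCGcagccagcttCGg
In these sequences the capitals are few at Runx1 and Cd44 and run throughout the promoter of Tox3. With 5 genes, 1 library and edges rounded to 1 kb, these values are set side by side as a description, and no relation between CG content and coverage was tested.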

How the data were processed

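H3K27me3 was profiled in 1 morula library per injection, and both peak lists of the series were used. Its 4 RNA-seq samples were not analysed here. Per the submitters' processing notes, Bowtie2 2.2.2, MACS2 and the build mm9 were used, with roles and settings not given in the sources used here. The authors deposited, for each peak, the fold of ChIP over input (a ratio), a −log10 p, a −log10 q and a score. The score is 10 times the −log10 q, rounded down. No read counts were given, so depth is unknown and folds are used within a list only.

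Loci were the mm9 gene bodies of the member list, which are rounded to 1 kb, plus 50 kb. Body lengths differed from RefSeq's GRCm38.p6 gene lengths by at most 1.54 kb. With no mm9 annotation here, the positions themselves were not checked; for Runx1 they lie within 1 kb of its GRCm38 position, and for the other 7 they do not. Neighbours and strands are RefSeq's. Covered bases were clipped to each locus. Peak widths are those of whole peaks, also where a peak runs past the locus. Windows were tiled without overlap over the autosomes, from the first to the last peak. Python 3.11.15, numpy 2.4.6, pandas 2.3.3, scipy 1.17.1 and matplotlib 3.10.9 were used, and overlaps were checked on simulated peaks of known position. All 8 members are named, with the widest Kdm6bMUT peak and every Kdm6bWT peak of a locus, or the 3 widest where over 5. Other peaks, the limit of 40% for dense windows and the joining of peaks into runs were chosen after values were seen. Members, lists and measures were chosen with earlier results of these data known. Alternatives were other flanks, stricter peak thresholds, merging, a minimum width, a larger overlap, 5 kb around starts and each locus left out in turn.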

Additional observations from a re-analysis of the deposited data

How the results depend on the processing

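No paired analysis was possible because the groups hold 1 ChIP library each. Of 51 values from alternative settings over the 8 loci, 35 stayed within 1.5 times the reported value (for the share of peaks touched, within its exact interval) and 16 did not. Fewer peaks pass a floor or a narrower locus by construction; for the rest the cause was not tested. Gene bodies alone held 83 Kdm6bMUT peaks and 11 Kdm6bWT peaks, the latter at 3 loci. These were Runx1, Etv6 and Epas1, with bodies of 226, 236 and 80 kb. Windows of body length were not counted, so the 3 loci have no background beside them. At the lowest −log10 p of the Kdm6bWT list (3.67), the loci still held 111 Kdm6bMUT peaks, which covered 55.7% of their length. The ratio of covered bases, 87.8 as reported, was 71.9 at that floor, 68.0 in gene bodies alone and 82.0 with flanks of 20 kb. It was 97.2 with flanks of 100 kb, and 112 with peaks less than 5 kb apart merged. At a score of at least 13, 8 Kdm6bWT peaks covered 0.306%, the ratio of covered bases was 221 and 4.65% of Kdm6bMUT peaks were touched. Peaks of at least 1 kb left 5 Kdm6bWT peaks at 2 loci, covering 0.427%, with a ratio of 157 and 2.61% touched. Merging peaks less than 5 kb apart gave 23 Kdm6bMUT peaks, 47.8% of them touched. Without merging, 0% of Kdm6bMUT peaks were touched over at least 50% of their length. Leaving out each locus in turn gave 144 to 170 Kdm6bMUT peaks, 10 to 17 Kdm6bWT peaks, 5 to 6 loci with a Kdm6bWT peak, 63.9% to 71.5% Kdm6bMUT coverage, 0.397% to 0.889% Kdm6bWT coverage, a ratio of 76.5 to 171 and 5.96% to 10.3% of peaks touched. The lowest number and coverage of Kdm6bWT peaks and the ratio of 171 came without Epas1. In all 7 settings tried locus by locus, Epas1 had the highest Kdm6bWT coverage, from 1.17% (score floor) to 5.36% (gene body). With flanks of 100 kb, Otx2 had 0.284% and Tox3 0.160%. All 5 starts had a Kdm6bMUT peak within 2 kb, and all 5 within 5 kb. No share over other gene starts was computed beside these counts.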
